A study of Homo sapiens with 5 samples.

Results

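Cholesterol synthesis and uptake genes were followed across 5 RNA sequencing libraries of H9, an established human embryonic stem cell line. The 31 genes were taken by symbol from a fixed list, and all 31 were found among the 26506 gene symbols of the deposited table. They hold 8 enzymes from acetyl-CoA units to farnesyl and geranylgeranyl diphosphate, 3 from squalene to lanosterol and 9 from lanosterol to cholesterol. A further 5 are regulators of the sterol response, 4 move sterol in or out of membranes and 2 make fatty acids. Each library was 1 combination of genotype and medium: wild-type (WT) cells in basal medium, recorded as primed; B3GALT5-/- cells (B3GALT5-KO, here KO) in basal medium, recorded as primed; WT cells in 2iLAF, recorded as primed-naive; WT cells in 5iLAF, recorded as naive; and KO cells in 2iLAF, recorded as naive. B3GALT5 encodes a galactosyltransferase of glycosphingolipid synthesis. The labels do not list what 5iLAF and 2iLAF hold; media of this naming are used to move primed cells towards the naive state, and both are called inhibitor media here. The labels also do not say how many knockout clones were used or which part of the gene was edited. With 1 library per group no difference has a replicate check, no test was possible and no error can be given.

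Cells make cholesterol from acetyl-CoA through mevalonate, isoprenoid diphosphates, squalene and lanosterol. When membranes of the endoplasmic reticulum hold enough sterol, INSIG proteins keep the SCAP escort and its cargo, the SREBP transcription factors, in place. When sterol is scarce, SREBP is carried to the Golgi, cut free and sent to the nucleus, where it activates nearly all synthesis genes and INSIG1 as well. Excess sterol acts the other way through LXR receptors, which raise exporters such as ABCA1. Rapidly dividing stem cells need this pathway for membrane growth.

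Promoter sequence was examined because the synthesis genes are known as a set that one family of factors controls. RefSeq promoters (GRCh38.p14) matched 27 of the 31 genes by symbol, and the 250 bases before each start were searched on both strands for 3 motifs. Only 1 promoter per symbol was kept, so any other start of a gene was not searched. The shares of tested genes are over the 11399 that matched a promoter. The sterol regulatory element core, TCACNCCAC, was present in 1 of 27 windows, that of SREBF2, against 0.939% of the windows of those tested genes. The NF-Y box, CCAAT, was in 17 of 27 (63.0%) against 34.7%, and the Sp1 GC box, GGGCGG, in 24 of 27 (88.9%) against 66.0%. Over all 27305 promoters the shares were 0.875%, 33.0% and 42.3%. A match is a description of letters and not of a bound site. The windows of 4 genes are printed 5′ to 3′ on the gene's strand, with every match of the 3 motifs in capitals, on either strand; no match overlaps another in these windows. SREBF2 is shown because it holds the sterol element, and STARD4, MSMO1 and TM7SF2, chosen after their values were seen, because STARD4 and MSMO1 passed the size rule used below as lower in WT 2iLAF against WT basal and TM7SF2 had the highest ratio there.
SREBF2, chr22:41832855-41833104, plus strand: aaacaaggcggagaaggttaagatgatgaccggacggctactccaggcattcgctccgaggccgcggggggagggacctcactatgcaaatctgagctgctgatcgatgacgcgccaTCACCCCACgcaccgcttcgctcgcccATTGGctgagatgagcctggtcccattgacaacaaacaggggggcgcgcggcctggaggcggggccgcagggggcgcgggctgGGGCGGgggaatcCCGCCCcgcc
STARD4, chr5:111512536-111512785, minus strand: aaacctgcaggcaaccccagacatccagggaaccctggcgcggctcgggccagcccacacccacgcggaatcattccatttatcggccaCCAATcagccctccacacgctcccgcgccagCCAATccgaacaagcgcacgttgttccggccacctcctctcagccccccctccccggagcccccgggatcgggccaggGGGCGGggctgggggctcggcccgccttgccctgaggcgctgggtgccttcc
MSMO1, chr4:165327419-165327668, plus strand: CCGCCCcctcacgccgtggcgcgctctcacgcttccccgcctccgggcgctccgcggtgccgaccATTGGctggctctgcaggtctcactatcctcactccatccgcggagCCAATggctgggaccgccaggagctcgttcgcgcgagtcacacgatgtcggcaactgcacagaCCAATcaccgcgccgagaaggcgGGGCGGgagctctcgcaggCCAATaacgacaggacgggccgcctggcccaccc
TM7SF2, chr11:65111622-65111871, plus strand: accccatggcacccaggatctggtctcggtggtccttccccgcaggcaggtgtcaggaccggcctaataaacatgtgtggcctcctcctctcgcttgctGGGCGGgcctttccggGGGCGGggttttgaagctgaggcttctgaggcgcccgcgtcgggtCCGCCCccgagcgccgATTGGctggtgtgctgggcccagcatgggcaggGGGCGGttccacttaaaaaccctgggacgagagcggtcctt
In SREBF2 the sterol element begins 133 bases before the start and the NF-Y box 106 bases before it. MSMO1 holds 4 NF-Y boxes, STARD4 holds 2 and TM7SF2 holds 1, beside 4 GC boxes in TM7SF2. CYP51A1, SCD and LBR also passed the size rule as lower in WT 2iLAF against WT basal, and their windows are not printed. CYP51A1 held 0 NF-Y boxes and 1 GC box, and SCD held 2 of each. The window of LBR, which acts at the same step as TM7SF2, held none of the 3 motifs.

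The values are TPM, each gene's share of all transcripts after scaling for length, and so can be set side by side between genes. Ratios between libraries are log2((TPM + 1)/(TPM + 1)), and a gene passed the size rule at a ratio of 1 or more in size; a milder mark of 1.5-fold on the same scale is given beside it. Read depth is unknown. B3GALT5 stood at 9.31 TPM in WT basal, 5.98 in KO basal, 5.13 in WT 2iLAF, 2.08 in WT with 5iLAF and 1.17 in KO with 2iLAF, so transcript level alone does not check the knockout label. All 6 pluripotency markers were above 1 TPM in every library, and their sums ran from 5388 TPM in WT basal to 2566 TPM in KO 2iLAF. Of 12 fibroblast markers, 6 reached 1 TPM in each basal library and in WT 2iLAF, 11 in WT with 5iLAF and 12 in KO with 2iLAF, with sums of 187, 375, 626, 4247 and 9463 TPM in WT basal, KO basal, WT 2iLAF, WT 5iLAF and KO 2iLAF. The 12 granulocyte markers summed to at most 3.14 TPM in 4 libraries, where 7 or 8 of them were listed at 0, and to 1169.5 TPM in KO 2iLAF. Erythroid markers summed to 229 TPM in WT basal and 222 TPM in KO 2iLAF, against 1.11 to 12.5 TPM in the others. In bulk RNA, fewer cells of a type and less RNA per cell cannot be told apart.

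**Figure D1:**
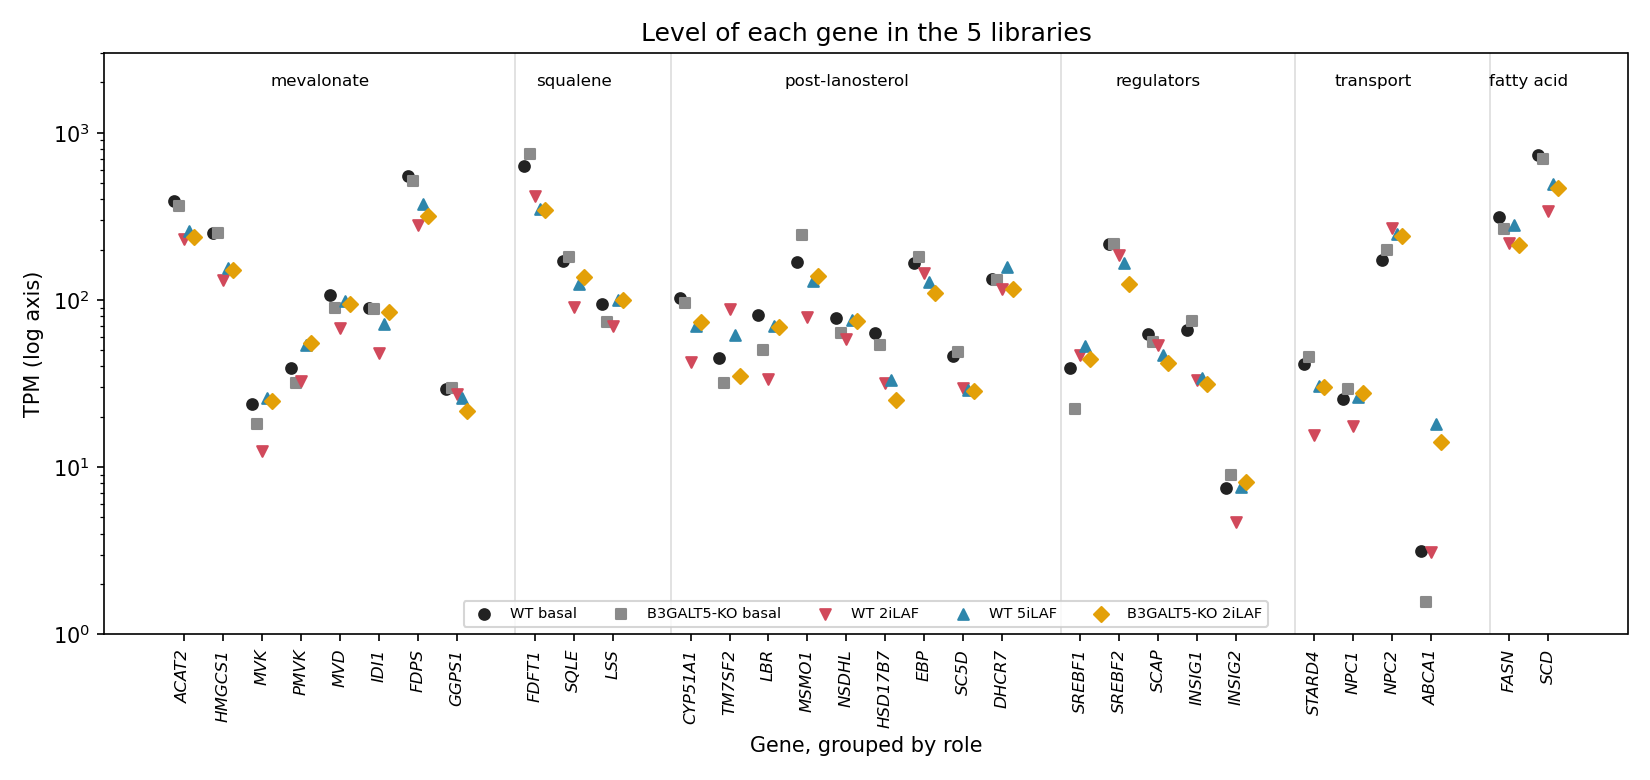
TPM on a log axis for the 31 genes, grouped by role, with 1 point per library. The synthesis enzymes lie between 12.5 and 750.1 TPM, WT 2iLAF points are lowest for 16 of the 31 genes, and ABCA1 has the widest spread.

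By summed level the synthesis enzymes were lower in each inhibitor library than in either basal library. The sum of the 4 sterol transport genes was higher, and most of it was NPC2. The 20 synthesis enzymes summed to 3261 TPM in WT basal, 3296 in KO basal, 2036 in WT 2iLAF, 2391 in WT with 5iLAF and 2236 in KO with 2iLAF. The sum of WT 2iLAF was thus 62.4% of that of WT basal, and the sums of WT 5iLAF and KO 2iLAF were 73.3% and 68.6% of it. The 4 transport genes summed to 126%, 133% and 128% of WT basal in WT 2iLAF, WT 5iLAF and KO 2iLAF, and to 113% in KO basal. NPC2 alone gave 173 of 243 TPM in WT basal and 270.5 of 307 TPM in WT 2iLAF. Of the 4 genes, 3 had negative ratios in WT 2iLAF and 1 in WT 5iLAF, both against WT basal. In KO 2iLAF against KO basal 2 were negative. Both basal libraries stood above the 3 others for 17 of the 31 genes, a pattern that 26.4% of the 15761 tested genes showed, and below them for 2 genes, SREBF1 and NPC2, against 16.2%. After median-ratio scaling the first count was 14 of 31, beside 21.9% of tested genes. WT 2iLAF was below each of the 4 others for 16 of 31 genes, against 30% of tested genes, and for 14 of 31 against 24.5% after median-ratio scaling.

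WT cells in 2iLAF were set against WT cells in basal medium. By the size rule 5 of 31 genes were lower, where 7.02% of tested genes were, and 0 were higher, where 4.73% were. The 5 were STARD4, CYP51A1, LBR, SCD and MSMO1. At 1.5-fold 16 of 31 were lower against 19.9% of tested genes, and 2, TM7SF2 and NPC2, were higher against 10.2%. The median ratio of the set was -0.59 and that of all tested genes -0.13. Median-ratio scaling brings the latter to 0.00, and the median of the set was then -0.43, with 12 genes lower at 1.5-fold where 13.6% of tested genes were. The same scaling turned 40.2% higher among all genes past the size rule into 53.7%. Ratios were negative for 28 of 31 genes, beside 60.9% of tested genes. They were negative for 26 after median-ratio scaling or with FPKM, as GGPS1 and ABCA1, both close to 0, turned positive.

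**Figure D2:**
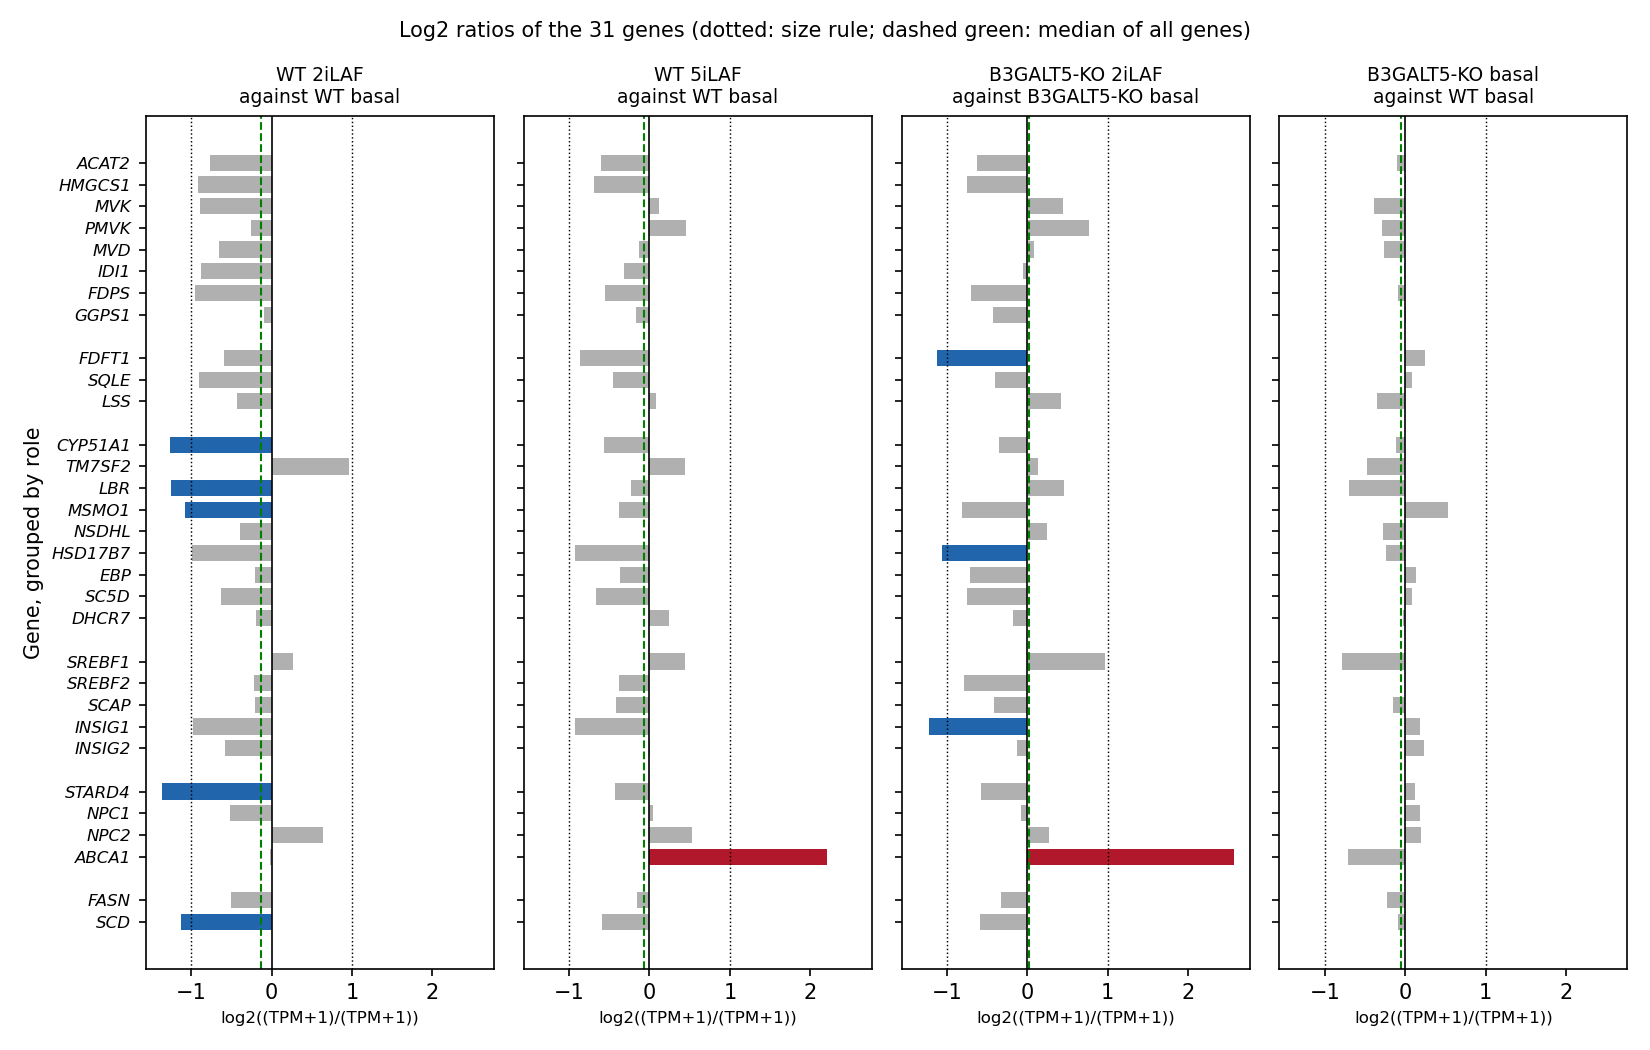
Log2 ratios of the 31 genes in 4 comparisons, with bars in blue or red where the size rule was passed, dotted lines at the rule and a dashed line at the median of all tested genes. In WT 2iLAF against WT basal 28 bars point down, where 60.9% of tested genes had negative ratios. In KO basal against WT basal no bar passes the rule.

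No gene of the mevalonate arm passed the size rule in any comparison, and its 3 most abundant genes are given first. ACAT2, the cytosolic thiolase that joins acetyl-CoA units, stood at 391 TPM in WT basal, 364 in KO basal, 231 in WT 2iLAF, 258 in WT with 5iLAF and 236 in KO with 2iLAF. HMGCS1, the synthase of HMG-CoA, stood in the same order at 251, 253, 132, 156 and 150.1 TPM. FDPS, which makes farnesyl diphosphate, stood at 549, 518, 282, 374 and 318.5 TPM. In these 3 genes both basal libraries were above all 3 inhibitor libraries, and WT 2iLAF was the lowest.

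The middle enzymes of the mevalonate arm had another order. MVK, mevalonate kinase, stood at 23.9 TPM in WT basal, 18.1 in KO basal, 12.5 in WT 2iLAF, 25.99 in WT with 5iLAF and 24.9 in KO with 2iLAF, so WT 2iLAF alone was low among the inhibitor libraries. PMVK, the next kinase, stood in that order at 39.3, 31.9, 32.6, 54.1 and 55.0 TPM. MVD, the decarboxylase that follows PMVK, stood at 107, 89.3, 67.8, 98 and 94.3 TPM. WT 5iLAF and KO 2iLAF were therefore near each other in all 3, and above both basal libraries in MVK and PMVK.

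IDI1, which isomerises the isoprenoid unit, stood at 89.5 TPM in WT basal, 88.3 in KO basal, 48.3 in WT 2iLAF, 71.9 in WT with 5iLAF and 84.9 in KO with 2iLAF. GGPS1, which leads away from sterols to geranylgeranyl diphosphate for protein prenylation, had the narrowest range of the arm, from 21.7 TPM in KO 2iLAF to 29.7 in KO basal. Of the 8 genes, 6 were lower at 1.5-fold in WT 2iLAF against WT basal, where 19.9% of tested genes were (median -0.82).

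Squalene enzymes commit the pathway to sterols. FDFT1, squalene synthase, was the most abundant synthesis gene in 4 libraries, at 631 TPM in WT basal, 750.1 in KO basal, 418 in WT 2iLAF and 343 in KO 2iLAF, and stood at 348 TPM in WT 5iLAF, below FDPS there. Against KO basal its ratio in KO 2iLAF was -1.13, past the size rule. SQLE, squalene epoxidase and a rate-limiting step, stood at 170.2 TPM in WT basal, 180.3 in KO basal, 91.0 in WT 2iLAF, 124 in WT with 5iLAF and 136 in KO with 2iLAF. WT 2iLAF was the lowest for SQLE, whereas for FDFT1 it lay above WT 5iLAF and KO 2iLAF. LSS, lanosterol synthase, ranged from 69.7 TPM in WT 2iLAF to 100.1 in WT 5iLAF, with KO basal near the bottom at 73.7.

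After lanosterol, CYP51A1, the first demethylase, stood at 103 TPM in WT basal, 95.2 in KO basal, 42.4 in WT 2iLAF, 69.8 in WT with 5iLAF and 74.2 in KO with 2iLAF. Its level in WT basal was 2.44-fold that in WT 2iLAF (log2 ratio -1.26). MSMO1, the methylsterol oxidase of the following steps, stood in that order at 168, 244, 79.2, 130 and 138 TPM, the highest ratio of the set in KO basal against WT basal (0.53) and -1.08 in WT 2iLAF against WT basal. The MSMO1 value fell short of the size rule after median-ratio scaling (-0.91) and with FPKM (-0.98).

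TM7SF2 and LBR both encode sterol reductases that act directly after CYP51A1, and LBR is also the lamin B receptor of the inner nuclear membrane. TM7SF2 stood at 44.7 TPM in WT basal, 31.9 in KO basal, 87.8 in WT 2iLAF, 61.3 in WT with 5iLAF and 35.1 in KO with 2iLAF. LBR stood at 81.8, 50.1, 33.7, 69.9 and 69.2 TPM. WT 2iLAF thus held the highest TM7SF2 and the lowest LBR of the 5 libraries. The ratio of TM7SF2 to LBR, which no library scaling can alter, was 2.60 in WT 2iLAF and between 0.507 and 0.876 in the 4 others. Against WT basal, LBR was at -1.25 in WT 2iLAF and TM7SF2 at 0.96, just short of the size rule, which it passed after median-ratio scaling (1.13) and with FPKM (1.04).

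**Figure D3:**
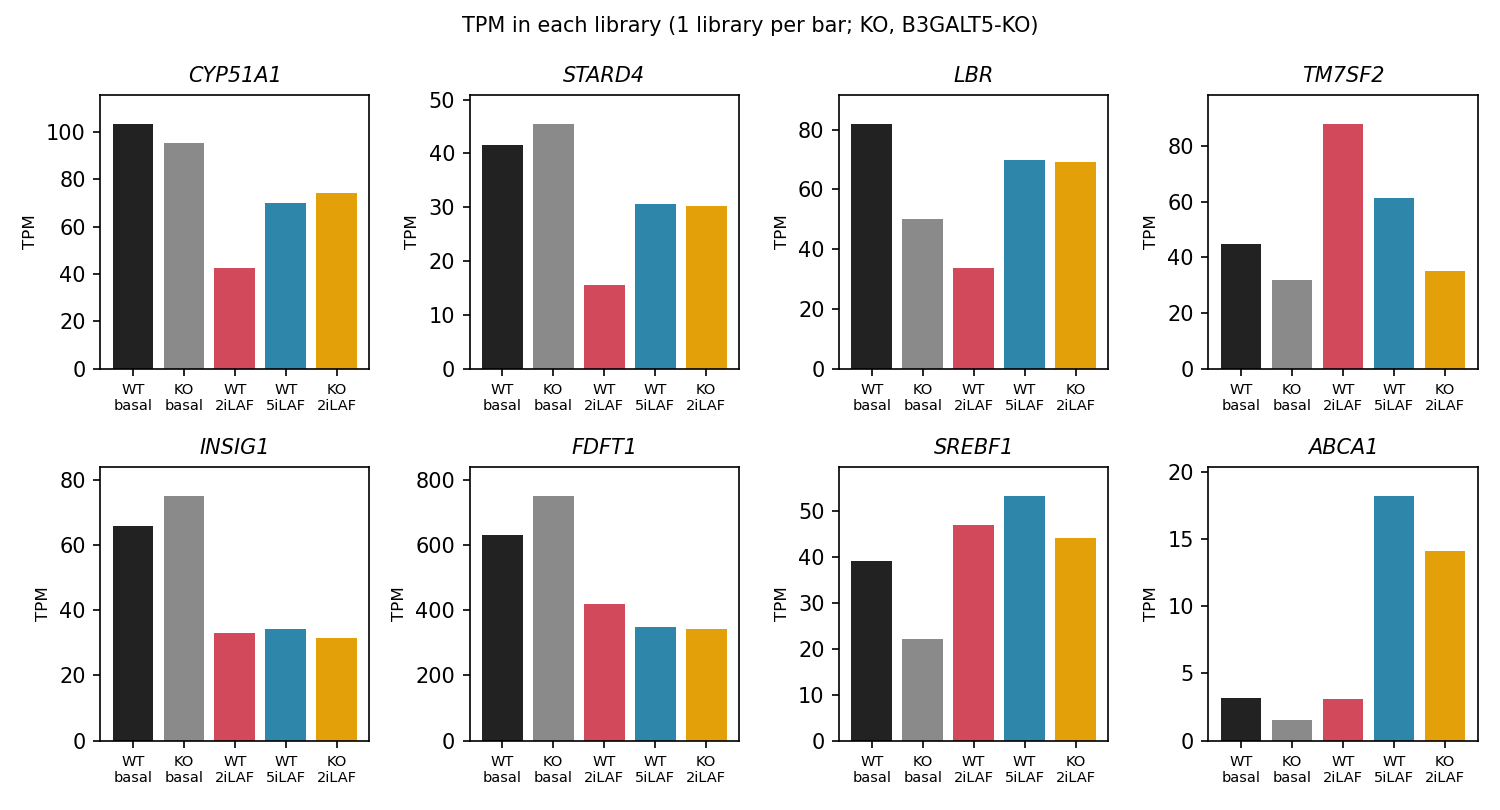
TPM of 8 genes in the 5 libraries, 1 bar per library on axes that start at 0. WT 2iLAF is lowest for CYP51A1, STARD4 and LBR and highest for TM7SF2, while ABCA1 is high in WT 5iLAF and KO 2iLAF.

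Of the remaining 5 enzymes after lanosterol, 3 were lower in all inhibitor libraries than in either basal library. HSD17B7, a ketosteroid reductase of the pathway, stood at 63.7 TPM in WT basal, 53.9 in KO basal, 31.7 in WT 2iLAF, 33.0 in WT with 5iLAF and 25.3 in KO with 2iLAF, with ratios of -0.99 in WT 2iLAF and -0.93 in WT 5iLAF against WT basal and -1.06 in KO 2iLAF against KO basal. SC5D, a late desaturase, stood at 46.2 and 49.0 TPM in the WT and KO basal libraries and at 28.7 to 29.6 TPM in the other 3. EBP, the sterol isomerase, ranged from 110.2 TPM in KO 2iLAF to 182 in KO basal. Among these 5 enzymes, those 3 had both basal libraries above the inhibitor libraries without overlap, a pattern that 26.4% of tested genes showed. CYP51A1 and MSMO1, given above, had it too, and TM7SF2 and LBR did not. NSDHL, from 58.6 to 77.4 TPM, and DHCR7, which makes cholesterol itself, from 115 to 158 TPM, had the narrowest ranges after lanosterol.

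Among regulators, INSIG1, the sterol sensor that SREBP itself activates, was the clearest. It stood at 65.8 TPM in WT basal, 75.1 in KO basal, 33.1 in WT 2iLAF, 34.2 in WT with 5iLAF and 31.5 in KO with 2iLAF. All 3 inhibitor libraries were below both basal libraries by about the same amount, with ratios of -0.97 and -0.92 in WT 2iLAF and WT 5iLAF against WT basal, and -1.23 in KO 2iLAF against KO basal. INSIG2, its relative outside direct SREBP control, stood in that order at 7.53, 8.99, 4.72, 7.58 and 8.15 TPM. The ratio of INSIG1 to INSIG2 was 8.75 and 8.35 in WT and KO basal, 7.01 in WT 2iLAF, 4.51 in WT with 5iLAF and 3.87 in KO with 2iLAF.

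The SREBP genes themselves had another order across the inhibitor libraries than most synthesis enzymes. SREBF2, the main activator of cholesterol genes, stood at 216 TPM in WT basal, 215 in KO basal, 185 in WT 2iLAF, 166 in WT with 5iLAF and 124 in KO with 2iLAF, so WT 2iLAF, the lowest library for 16 of the 31 genes, held the highest SREBF2 of the inhibitor libraries. SREBF1, which drives fatty acid synthesis more than cholesterol synthesis, stood at 39.0, 22.2, 47.0, 53.1 and 44.0 TPM. It was lowest in KO basal (-0.79 against WT basal) and higher in all 3 inhibitor libraries than in either basal library. SCAP, the escort of SREBP, ranged from 41.9 TPM in KO 2iLAF to 62.5 in WT basal.

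Genes of sterol movement split in both directions. STARD4, a cytosolic sterol carrier under SREBP control, stood at 41.5 TPM in WT basal, 45.4 in KO basal, 15.5 in WT 2iLAF, 30.6 in WT with 5iLAF and 30.2 in KO with 2iLAF, and its ratio of -1.37 in WT 2iLAF against WT basal was the lowest of the set. NPC1 and NPC2 together release cholesterol taken up by the cell from lysosomes. NPC1 was lowest in WT 2iLAF, at 17.6 TPM against 25.7 to 29.3 TPM elsewhere. NPC2 was highest there, at 270.5 TPM, with 249 in WT 5iLAF, 239.6 in KO 2iLAF, 198 in KO basal and 173 in WT basal.

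ABCA1, the exporter that loads cholesterol onto lipoprotein particles, had the widest range of the set. It stood at 3.16 TPM in WT basal, 1.55 in KO basal, 3.12 in WT 2iLAF, 18.2 in WT with 5iLAF and 14.1 in KO with 2iLAF. The level in WT 5iLAF was 5.76-fold that in WT basal by TPM alone, and the level in KO 2iLAF was 9.10-fold that in KO basal. With the pseudocount of 1 TPM the log2 ratios were 2.21 and 2.57. These sizes depend on the pseudocount, with 2.49 and 3.11 at 0.1 TPM and 1.51 and 1.54 at 5 TPM. WT 5iLAF and KO 2iLAF did not overlap with the other 3 libraries. How many tested genes had that split was not counted, so it cannot be called particular to ABCA1. Beside the ABCA1 values, 10 macrophage markers summed to 39.1 TPM in WT 5iLAF and 155 in KO 2iLAF against 6.34 to 23.8 TPM in the others. Of the 10, 4 reached 1 TPM in WT 5iLAF and 7 in KO 2iLAF, against 2 or 3 in the others. In WT 5iLAF against WT basal 2 of the 7 tested markers passed the size rule as higher and 0 as lower, where 10.7% and 11.4% of tested genes did. These 2 were CSF1R, at 3.74 TPM and listed at 0 in WT basal, and LYZ, at 8.94 against 1.46 TPM. AIF1 gave 24.5 of the 39.1 TPM in WT 5iLAF and stood at 20.3 TPM in WT basal. CD14, ITGAM and CD163 reached 1 TPM, and so passed the filter, only in KO 2iLAF. They stood at 0.10 TPM or less in WT 5iLAF and WT basal, so no direction can be given there. MARCO was the 1 marker listed at 0 in WT 5iLAF. Endoderm markers summed to 1940.3 and 986.5 TPM in the same 2 libraries against 5.62 to 6.89 TPM in the others. The part of these cell types and of the fibroblast markers given above in the ABCA1 value was not tested. Taking the fibroblast and blood cell markers out of the TPM total left the counts of genes past the size rule the same in each comparison. That step only rescales each library, with ABCA1 at 2.58 in KO 2iLAF against KO basal. It takes away no ABCA1 RNA of any cell type, so it cannot address that part.

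SCD and FASN, the fatty acid enzymes of the set, are SREBP targets as well. SCD, which makes monounsaturated fatty acids, was the most abundant gene of the set in WT basal, at 739 TPM, with 697 in KO basal, 339.7 in WT 2iLAF, 491 in WT with 5iLAF and 465 in KO with 2iLAF. FASN, fatty acid synthase, stood in that order at 312, 267, 220.2, 280.2 and 212 TPM. SCD was at -1.12 in WT 2iLAF against WT basal (-0.94 after median-ratio scaling) and FASN at -0.50.

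In basal medium, KO and WT cells differed little across the set. No gene of 31 passed the size rule in either direction, where 0.704% of tested genes were higher and 1.05% lower. At 1.5-fold 3 were lower (LBR, SREBF1 and ABCA1) and 0 higher, against 4.8% and 2.85% of tested genes. The median of the set was -0.08 beside -0.06 for all tested genes, and it was 0.00 after median-ratio scaling, so no direction can be given. ABCA1 was at 1.55 against 3.16 TPM, SREBF1 at 22.2 against 39.0 and LBR at 50.1 against 81.8.

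For 5iLAF the comparison was with WT basal, which serves as the control here as it did for 2iLAF. ABCA1 was the 1 gene of 31 past the size rule as higher, where 10.7% of tested genes were, and 0 were lower, where 11.4% were. At 1.5-fold ABCA1 was again the 1 higher, against 18.5% of tested genes, and 7 were lower against 22.1% of tested genes, a share near the background: ACAT2, HMGCS1, FDFT1, HSD17B7, SC5D, INSIG1 and SCD. After median-ratio scaling 4 were lower and 2 higher, against 19.0% and 20.7% of tested genes. The median of the set was -0.31 and that of all tested genes -0.06.

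In KO cells, 2iLAF was set against basal medium. INSIG1, FDFT1 and HSD17B7 were the 3 genes past the size rule as lower, where 11.8% of tested genes were, and ABCA1 was the 1 higher, where 15.9% were. At 1.5-fold 10 were lower against 22.3% of tested genes, and 3 were higher against 25.8%: ABCA1, SREBF1 and PMVK. SREBF1 stood at 44.0 against 22.2 TPM (0.96). The median of the set was -0.36 against 0.02 for all tested genes. The 5 genes past the size rule as lower in WT 2iLAF against WT basal were read here too. MSMO1 was at -0.82, close to its -1.08 there. CYP51A1, STARD4, SCD and LBR were at -0.36, -0.57, -0.58 and 0.46.

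The 2 genotypes were then set side by side within 2iLAF. LBR and ABCA1 were past the size rule as higher in KO, 2 of 31 against 16.6% of tested genes, and TM7SF2 as lower, 1 of 31 against 10.8%. At 1.5-fold 10 were higher against 27.7% of tested genes: MVK, PMVK, IDI1, CYP51A1, LBR, MSMO1, INSIG2, STARD4, NPC1 and ABCA1. TM7SF2 was the 1 lower, against 19.3%. STARD4 stood at 30.2 TPM in KO and 15.5 in WT (0.92), and TM7SF2 at 35.1 and 87.8 (-1.30). The LBR ratio of 1.02 was 0.93 after median-ratio scaling and 0.87 with FPKM. The recorded state of these 2 libraries differs too, naive for KO and primed-naive for WT, so genotype and state cannot be told apart.

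KO 2iLAF and WT 5iLAF, both recorded as naive, were compared last. No gene of 31 passed the size rule, where 4.9% of tested genes were higher and 1.03% lower in KO 2iLAF. At 1.5-fold TM7SF2, at 35.1 against 61.3 TPM (-0.79), was the 1 lower against 4.61% of tested genes, and 0 were higher against 9.1%. The median of the set was -0.05.

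**Figure D4:**
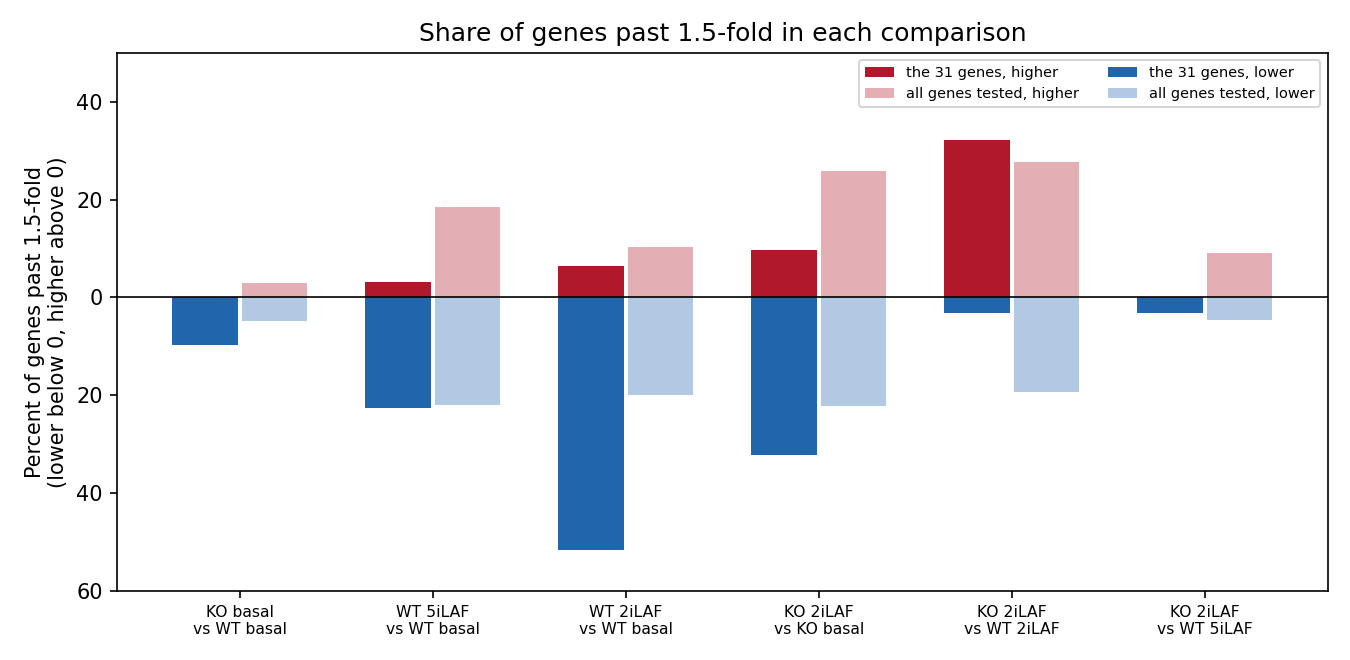
Percent of genes past 1.5-fold in 6 comparisons, higher above 0 and lower below 0, with the 31 genes in full colour and all tested genes in pale colour. The largest share of the set is the 51.6% lower in WT 2iLAF against WT basal, beside 19.9% of all tested genes.

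Related genes of sterol and lipid handling were taken from 6 further lists and named by the size of their ratios. The counts past the size rule are read against the shares of all tested genes, which were 4.73% higher and 7.02% lower in WT 2iLAF, 10.7% and 11.4% in WT 5iLAF, both against WT basal, and 15.9% and 11.8% in KO 2iLAF against KO basal. Of 14 genes that sense sterol or degrade its enzymes, 0 passed the size rule in WT 2iLAF or WT 5iLAF against WT basal, and 1 was higher in KO 2iLAF against KO basal. That was MBTPS2, a protease that cuts SREBP free, at 9.93 TPM in WT basal, 8.60 in KO basal, 5.37 in WT 2iLAF, 14.1 in WT with 5iLAF and 18.6 in KO with 2iLAF.

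Of 22 tested fatty acid synthesis genes, 5 were lower and 0 higher in WT 2iLAF against WT basal (median -0.50), 3 lower and 2 higher in WT 5iLAF, and 2 lower and 4 higher in KO 2iLAF against KO basal. The counts in WT 5iLAF and KO 2iLAF are near the shares of all tested genes given above. ACSL1, which activates long fatty acids, stood at 8.97 TPM in WT basal, 7.71 in KO basal, 1.45 in WT 2iLAF, 3.79 in WT with 5iLAF and 11.9 in KO with 2iLAF. ME1, malic enzyme and a source of NADPH, stood in that order at 9.31, 10.4, 5.38, 17.8 and 22.7 TPM. ELOVL2, an elongase of polyunsaturated fatty acids, stood at 0.97, 1.08, 0.30, 6.78 and 4.54 TPM, and ELOVL7, another elongase, at 4.49, 5.54, 2.64, 1.10 and 0.73 TPM. WT 2iLAF was the lowest library for the first 3, whereas ELOVL7 was lower still in WT 5iLAF and KO 2iLAF.

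Cholesterol esterification and oxysterol genes were low, with sums of 20.3, 18.6, 29.9, 47.0 and 55.4 TPM over 11 genes in WT basal, KO basal, WT 2iLAF, WT 5iLAF and KO 2iLAF. Of 8 tested, 2 were higher and 0 lower in WT 2iLAF, 3 higher and 1 lower in WT 5iLAF, and 3 higher and 1 lower in KO 2iLAF, each against its own basal library. SOAT1, which esterifies cholesterol for storage, stood at 1.60 TPM in WT basal, 1.13 in KO basal, 7.77 in WT 2iLAF, 12.7 in WT with 5iLAF and 19.2 in KO with 2iLAF. HSD3B7, a bile acid synthesis enzyme, stood in that order at 2.18, 2.08, 6.59, 8.42 and 9.80 TPM. The inhibitor libraries lay above both basal libraries for both genes. They did not for CYP27A1, a sterol hydroxylase, at 2.63, 3.44, 3.12, 8.14 and 7.63 TPM, or for LCAT, which esterifies cholesterol in lipoproteins, at 4.76, 3.12, 3.93, 7.70 and 11.8 TPM.

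LXR partners and exporters other than ABCA1 showed no common direction. In each of the 3 medium comparisons 1 of 14 passed the size rule as higher and 1 as lower. SMPDL3A, a secreted phosphodiesterase, stood at 3.13 TPM in WT basal, 3.26 in KO basal, 0.72 in WT 2iLAF, 8.36 in WT with 5iLAF and 11.01 in KO with 2iLAF. ABCA2, a lipid transporter of the ABCA1 family, stood at 7.40 TPM in WT basal, 6.50 in KO basal, 4.19 in WT 2iLAF, 1.80 in WT with 5iLAF and 1.98 in KO with 2iLAF, and ABCA7 of the same family ranged from 4.13 to 8.94 TPM. NR1H2 and NR1H3, the LXR genes, ranged from 33.1 to 41.9 and from 15.2 to 17.4 TPM.

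Of 28 tested sterol transport genes, 1 was higher and 4 lower in WT 2iLAF, 2 higher and 4 lower in WT 5iLAF, and 3 higher and 4 lower in KO 2iLAF, each against its basal library. Those counts in WT 5iLAF and KO 2iLAF are near the shares of all tested genes. CAV1, the caveolin that coats cholesterol-rich pits, stood at 4.62 TPM in WT basal, 7.15 in KO basal, 3.81 in WT 2iLAF, 103 in WT with 5iLAF and 112 in KO with 2iLAF, high in the same 2 libraries as ABCA1. VLDLR, a lipoprotein receptor, stood at 57.1 TPM in KO basal against 18.8 in WT basal, the 1 gene of this list past the size rule between the basal libraries, and was lowest in WT 2iLAF at 5.4 TPM. OSBPL1A, an oxysterol-binding protein, stood at 38.5, 43.6, 33.1, 14.2 and 12.1 TPM in WT basal, KO basal, WT 2iLAF, WT 5iLAF and KO 2iLAF. GRAMD1B, a sterol carrier at membrane contacts, stood in that order at 5.10, 5.82, 12.9, 3.76 and 2.85 TPM.

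In the branch that uses isoprenoid diphosphates for ubiquinone, dolichol and prenyl groups, few genes passed the size rule. Of 15 tested genes none passed the size rule in WT 2iLAF or WT 5iLAF against WT basal, and 1 was higher in KO 2iLAF against KO basal. That was FNTB, a farnesyltransferase subunit, at 14.7 against 4.52 TPM, with 8.71 TPM in WT basal. COQ2, which starts ubiquinone assembly, stood at 28.3 and 21.8 TPM in WT and KO basal and at 14.2 to 15.4 TPM in the other 3 libraries. The median of the list in WT 2iLAF was -0.40 against -0.13 for all tested genes, and 3 of 15 were lower at 1.5-fold against 19.9%. ZMPSTE24, a protease of prenylated proteins, ranged from 23.1 TPM in KO basal to 45.9 in KO 2iLAF. DHDDS, of dolichol synthesis, was higher in the inhibitor libraries, with 22.2 and 20.5 TPM in basal and 30.0 to 38.9 TPM in the other 3.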

How the data were processed

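Poly(A)-selected RNA was sequenced in 5 libraries. The submitters' processing notes name Trimmomatic 0.39, Bowtie2 2.3.4.1, RSEM 1.2.28 and build hg19; which gene annotation and strand setting were used is not stated there. The authors deposited TPM and FPKM values per library, per the file headers; 18 further columns were empty. The deposited FPKM differed from TPM by a near-fixed factor per library (0.484 to 0.531). RSEM divides shared reads by estimate, so genes with near-identical copies are uncertain. Counts were not used here, so depth is unknown and no interval is given.

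Each library was its own group, taken from the labels, and 6 comparisons were made on log2((TPM + 1)/(TPM + 1)) over the 15761 genes reaching 1 TPM in at least 1 library, which all 31 genes did. No p-value was computed. Scripts in Python 3.11.15 (pandas 2.3.3, numpy 2.4.6, matplotlib 3.10.9) were tested on simulated data. The genes and lists were chosen with earlier results of these data known. Each gene of the set was named. In other lists up to 4 genes of 5 TPM or more with the largest ratios were eligible. The LXR genes, CSF1R, LYZ, AIF1, CD14, ITGAM, CD163 and MARCO were chosen after their values were seen. Some genes of the other lists are not reported here. Alternatives were pseudocounts of 0.1 and 5, no filter, a 5 TPM filter, median-ratio scaling, FPKM and a 1.5-fold mark. Rescaling without fibroblast and blood cell markers, and the 1.5-fold mark with median-ratio scaling, were added after seeing the data.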

Additional observations from a re-analysis of the deposited data

Results flagged for a closer look

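The step from basal medium to 2iLAF ran in opposite directions in WT and KO, by at least 1 on the log2 scale, for 4 of the 31 genes. That is a smaller share than the 20.1% of all tested genes that did so, so it is not a trait of the set. The difference was not tested, since each genotype has 1 library per medium. For LBR the WT change was -1.25 and the KO change 0.46, a difference of 1.71. For MVK they were -0.89 and 0.44, a difference of 1.33. For PMVK they were -0.26 and 0.77, a difference of 1.03. The PMVK difference was below 1 after median-ratio scaling (0.86), with FPKM (0.84) and with a pseudocount of 5 TPM (0.94). The LBR and MVK differences stayed above 1 with opposite directions under those 3 settings. For ABCA1 they were -0.01 and 2.57, a difference of 2.58, and the WT value became 0.12 after median-ratio scaling and 0.05 with FPKM, so that the directions were no longer opposite. The recorded state of the 2iLAF libraries also differs between the genotypes.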

How the results depend on the processing

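No paired analysis was possible because each group holds 1 library and the labels give no replicate numbers, and no library could be left out. Without a filter, with a 5 TPM filter, with a pseudocount of 0.1 and without fibroblast and blood cell markers, all 18 counts and medians stayed within 1.5 times, or within 0.25 for medians. A pseudocount of 0.1 added HSD17B7 to the lower genes of WT 2iLAF (-1.01). In KO 2iLAF against WT 2iLAF the 2 higher genes became 1 with a pseudocount of 5, with median-ratio scaling and with FPKM, as LBR fell short. The shares of all tested genes higher under those settings were 8.98%, 15.5% and 13.1%. In WT 2iLAF against WT basal the 0 higher genes became 1 with median-ratio scaling and with FPKM, TM7SF2, and median-ratio scaling took the 5 lower genes to 3. FPKM gave 4 lower. The share of all tested genes lower there was 7.02%, and 11.4% and 2.89% with pseudocounts of 0.1 and 5. With median-ratio scaling 5.26% of tested genes were lower and 6.09% higher, and with FPKM 4.70% and 4.53%.

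The 1.5-fold mark raises counts by its construction. With TPM it gave 3 lower in KO basal, 1 higher and 7 lower in WT 5iLAF, and 2 higher and 16 lower in WT 2iLAF. In KO 2iLAF it gave 3 higher and 10 lower against KO basal, 10 higher and 1 lower against WT 2iLAF, and 1 lower against WT 5iLAF. The shares of tested genes beside these counts are given above. With median-ratio scaling as well, it gave in the same order 1 higher and 3 lower, 2 higher and 4 lower, 2 higher and 12 lower, 3 higher and 10 lower, 9 higher and 2 lower, and 0 higher and 1 lower. No gene past the size rule changed sign under any alternative run. Unknown depth and single libraries limit every value, and low genes such as ABCA1 in basal medium most.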
